A study of Homo sapiens with 6 samples.

Results

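The mRNAs examined here are those of the ZNF genes, whose symbol in the site files is ZNF followed by digits and an optional final letter. They numbered 132 of the 8204 genes with a called site in any library, and each was represented by 1 RefSeq mRNA. RNA bound to AEG-1, an endoplasmic reticulum membrane protein encoded by MTDH, was measured by crosslinking and immunoprecipitation (CLIP) in AEG-1-14, a line made from HepG3, a hepatoblastoma line per the labels, that stably makes AEG-1 tagged with HA at the C-terminus. All 6 libraries came from this 1 line, were precipitated with an anti-HA antibody and were partly digested with RNase I. They comprised 2 HITS-CLIP AEG1 libraries (UV at 254 nm), 2 HITS-CLIP controls without UV, 1 PAR-CLIP AEG1 library (UV at 365 nm) and 1 PAR-CLIP control without UV. The read depth is unknown, because the files give called sites with a log2 score and no read counts.

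ZNF symbols were given mostly to proteins with C2H2 zinc fingers, short folds in which a pair of cysteines and a pair of histidines hold a zinc ion, often strung together in arrays that bind DNA. The largest group also carries a KRAB domain, which recruits the corepressor TRIM28 and through it SETDB1 and HP1 proteins to silence chromatin, transposable elements in particular. Most are nuclear proteins without a signal peptide and are made on ribosomes of the cytosol, unlike the secreted and membrane proteins made at the endoplasmic reticulum. Many of their genes stand in tandem clusters of related copies, so that fragments from a finger array may belong to more than 1 gene and the call on any single clustered gene is uncertain.

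The libraries differed widely in size, from 60 sites in HITS-CLIP control 1 to 60085 in PAR-CLIP AEG1. Liver markers were present, with sites on 11 of 12 listed genes in PAR-CLIP AEG1 and on 9 of 12 in both HITS-CLIP AEG1 replicates, DLK1 alone having none in any library. Of 12 genes marking endothelium, blood or connective tissue, 3 had PAR-CLIP sites (CD68, CD14 and ACTA2), and CD68 alone was also seen in both HITS-CLIP AEG1 replicates. No site was called in any library on PTPRC, PECAM1, VWF, CDH5, COL1A1, COL1A2, COL3A1, HBB or MS4A1. Scores were compared only between sites of the same mRNA, except in alternatives that kept sites above the median score of their library. On the same mRNA, 1450 of 6228 HITS-CLIP AEG1 1 sites (23.3%) had a score that recurred in PAR-CLIP AEG1 within 1e-06, although the libraries differ in size. No source states whether scores were scaled by library. On some mRNAs PAR-CLIP scores ranged by nearly whole-number folds, 2.01 on ZNF24, 3 on ZNF259 and 4 on ZNF622, but 6.36 on ZNF292. Without read counts, how many reads an equal score or a small fold rests on is unknown.

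In PAR-CLIP AEG1 a smaller share of ZNF genes than of all protein-coding genes had a site. That library held 334 sites on 123 ZNF genes, 0.556% of its sites and 1.54% of its genes. Its control held no ZNF site among 121. That leaves an upper limit of about 3 sites (2.48%), above 0.556%, so the control is too small to show a lower ZNF share. With symbols updated, 119 of the 509 protein-coding ZNF genes of the RefSeq table had a PAR-CLIP site, or 23.4% (exact 95% binomial interval 19.8 to 27.3, counting error only, as for all intervals here), against 39.7% of all 20056 protein-coding genes. Which of these genes were transcribed in the line was not measured, so absence of a site and absence of the mRNA cannot be told apart.

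The ZNF genes that did carry PAR-CLIP sites mostly carried a single one. Exactly 1 site was found on 69 of 123 ZNF genes (56.1%, 46.9 to 65.0), against 15.7% of all 8009 PAR-CLIP genes and 15.1% (14.3 to 15.9) of the 7886 others. At the upper end, 7 ZNF genes (5.69%) held 10 or more sites, against 27.6% of the others. The median was 1 site for ZNF genes and 5 for the others, and the median covered length was 86 and 429 nt. The furthest PAR-CLIP site end had a median of 2372 nt on ZNF mRNAs and 2049.5 nt on the others. These are counts in 1 library over genes, which are not replicates, and the difference was not tested.

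**Figure D1:**
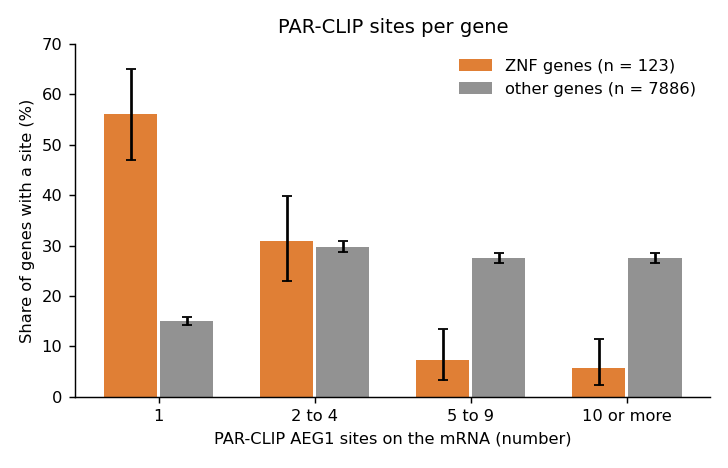
Share of genes with a PAR-CLIP AEG1 site (%) by the number of sites on the mRNA, for 123 ZNF genes and 7886 other genes; bars are shares and error bars exact 95% binomial intervals. ZNF genes were concentrated at 1 site (56.1%), and other genes were spread up to 10 or more (27.6%).

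The PAR-CLIP sites were unevenly spread over ZNF mRNAs. The 16 of 123 genes with at least 5 sites carried 159 of the 334 sites (47.6%). Among other genes 4344 of 7886 (55.1%) had at least 5 sites, with a maximum of 90. The share of sites held by such other genes was not computed, so the uneven spread is not shown to be particular to ZNF mRNAs. ZNF638, a nuclear RNA-binding zinc finger protein linked to transcriptional silencing, led the ZNF mRNAs with 24 sites between nt 38 and 6137. Its sites were 38 to 188 nt wide and lay along the whole covered length, the highest score being 6.86 at nt 982 to 1079 and the lowest 4.27. ZNF518A, a C2H2 protein, followed with 15 sites between nt 282 and 6924. ZNF292, a large C2H2 transcription factor, held 13 between nt 311 and 9247. None of these 3 mRNAs had a site in either HITS-CLIP AEG1 library or in any control. Such absence was common. Of other genes with 10 to 24 PAR-CLIP sites, 783 of 1875 (41.8%) had a site in either HITS-CLIP AEG1 replicate, as did 2 of 7 ZNF genes.

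ZNF207, or BuGZ, a microtubule-binding protein of the spindle, also held 13 PAR-CLIP sites, packed between nt 28 and 1877. Its scores ran from 4.66 to 8.83, the widest span among ZNF mRNAs at 4.17 log2 units, which is an 18.02-fold range between its own sites. The highest was also its widest, 190 nt from nt 28 to 217. ZNF664, a C2H2 protein, held 12 sites spanning 3.46 log2 units, with its highest, 10.68, at nt 213 to 384. ZNF460, a KRAB zinc finger protein, held 12 spanning 2.00, with its highest, 11.82, at nt 2804 to 2948. ZNF146, a protein made almost wholly of zinc fingers, held 9 spanning 3.46, and its highest, 9.42, was 150 nt wide at nt 1051 to 1200.

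ZNF787, a C2H2 protein, held 11 sites spanning 3.41 log2 units, the highest, 11.78, at nt 1850 to 1921, and was the single ZNF mRNA with 10 or more PAR-CLIP sites that also had a site in both HITS-CLIP AEG1 libraries. ZNF292 spanned 2.67 log2 units, with its highest score, 9.11, at nt 8262 to 8333. Across the 54 ZNF mRNAs with at least 2 PAR-CLIP sites the median span of scores was 1.08 log2 units, against 2.33 over 6697 other mRNAs. Among mRNAs with 5 to 24 sites, where the numbers are closer, it was 2.20 (16 ZNF mRNAs) and 2.81 (4042 others).

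The others with the most sites took part in varied processes. ZNF828, now CHAMP1, which helps chromosomes attach to the spindle, held 8 sites at scores between 6.59 and 7.59. ZNF770 held 8, ZNF609, a regulator of transcription, 7, and ZNF598, the ubiquitin ligase that marks collided ribosomes, 6. ZNF281, a transcription factor that binds GC-rich sites, held 6, while ZNF655, a C2H2 protein, and ZNF622, which acts in maturation of the large ribosomal subunit, held 5 each. ZNF24, a SCAN domain protein, also held 5. The remaining 38 genes with 2 to 4 sites and 69 with 1 site made up the rest, and the single sites were 18 to 138 nt wide with a median of 55 nt.

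**Figure D2:**
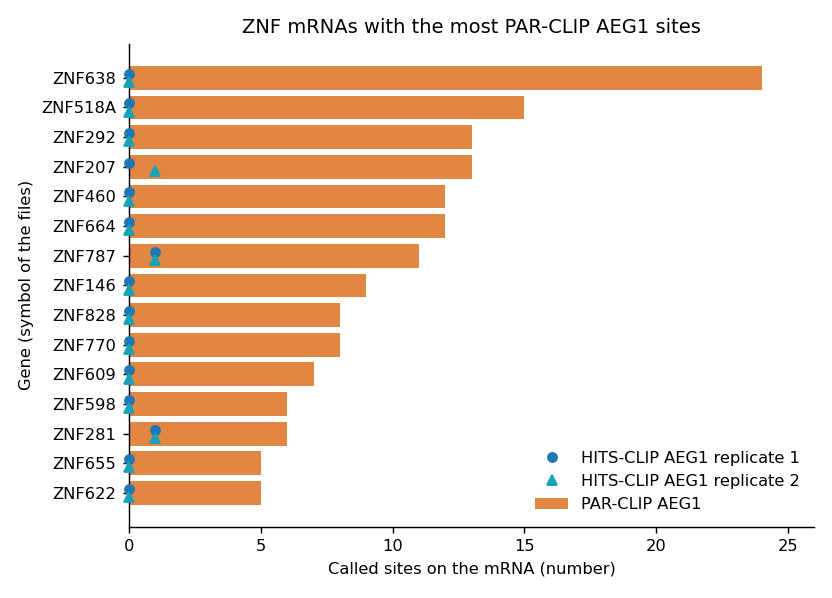
Number of called sites on the 15 ZNF mRNAs with the most PAR-CLIP AEG1 sites; bars are PAR-CLIP AEG1, circles and triangles the HITS-CLIP AEG1 replicates. ZNF638 leads with 24 PAR-CLIP sites and no HITS-CLIP site, and ZNF787 and ZNF281 are the genes here with 1 site in each HITS-CLIP replicate.

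PAR-CLIP sites on ZNF mRNAs were also narrower. Their median width was 62 nt, against 73 nt on other mRNAs, and their widest was 234 nt. Sites of 100 nt or more made up 31 of 334 (9.28%, 6.39 to 12.9) against 27.9% on other mRNAs. Sites of 300 nt or more were 0 of 334 on ZNF mRNAs and 1411 of 59751 (2.36%) on the others. Over all PAR-CLIP sites, the median start was nt 1745 on ZNF mRNAs and nt 1441 on the others. The first site of an mRNA began at a median of nt 864 and nt 316, a value that comes earlier where an mRNA has more sites.

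Site starts were also set against the length of the finger repeat. A C2H2 finger with its linker is 28 residues long, so an array repeats about every 84 nt in the mRNA. Of 265 PAR-CLIP sites on ZNF mRNAs with at least 2 sites, 108 (40.8%, 34.8 to 46.9) began within 3 nt of a whole multiple of 84 nt from another site. Other mRNAs with the same numbers of sites gave 41.4%, a value inside that interval. No transcript sequence was at hand, so the position of the fingers themselves was not analysed.

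ZNF genes were also divided, after their values were seen, by whether another ZNF gene stood next to them in the RefSeq table. Of 331 genes with a ZNF neighbour, 67 (20.2%, 16 to 25) had a PAR-CLIP site, against 52 of 178 (29.2%, 22.7 to 36.5) without one, and the intervals overlap. At least 5 sites were found on 4 of the 67 (5.97%) and on 12 of the 52 (23.1%). A single site was found on 45 (67.2%) and 22 (42.3%). The sources used here do not say how reads matching several copies were assigned, and its part in these counts was not tested. Gene pairs with paired symbols each had 1 site, at positions that are counted from the start of different mRNAs and cannot be set against each other without their sequences. ZNF33A had 1 at nt 3260 to 3305 and ZNF33B 1 at nt 160 to 232, while ZNF286A had 1 at nt 2890 to 2947 and ZNF286B 1 at nt 2661 to 2719.

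Fewer ZNF mRNAs were seen in HITS-CLIP. HITS-CLIP AEG1 1 held 17 sites on 17 ZNF genes (0.267% of its sites) and HITS-CLIP AEG1 2 held 20 sites on 19 (0.354%), and each control held 1. The means were 18.5 ± 2.12 and 1.00 ± 0.00 sites (SD, n = 2 each), an 18.5-fold difference, against 80.2-fold for the sites of all genes. In each control the 1 ZNF site was on ZNF678, so the 18.5-fold value rests on that gene and the folds cannot be ranked. The smallest p of an exact two-sided permutation test over 2 against 2 libraries, p = 0.333, was reached. With sites over 25 nt alone the AEG1 libraries held 6 and 8 and the controls 0, so the difference in means fell from 17.5 to 7 sites. The labels do not name the replicates as separate cultures, and p then measures only the spread between these libraries, which may be technical.

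Of the 132 ZNF genes, 13 had a site in both HITS-CLIP AEG1 libraries, or 9.85%, against 16.1% of all 8204 genes. With sites over 25 nt alone the 13 became 5, namely ZNF281, ZNF485, ZNF503, ZNF771 and ZNF787. Among genes with a PAR-CLIP site, 8 of 123 ZNF genes (6.50%, 2.85 to 12.4) were seen in each replicate, against 15.5% of all PAR-CLIP genes and 15.7% of the others. Among other genes this share was higher where PAR-CLIP sites were more numerous, being 5.63% at 1 site, 8.97% at 2 to 4, 15.9% at 5 to 9 and 26.6% at 10 to 24. ZNF genes had 4 of 69 (5.80%), 2 of 38 (5.26%), 1 of 9 (11.1%) and 1 of 7 (14.3%) in the same bands. At the shares of the other genes, 10.6 ZNF genes would have had a site in both replicates, and 8 had. Every band share of the other genes lay within the ZNF interval.

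HITS-CLIP sites on ZNF mRNAs were narrow. In HITS-CLIP AEG1 1 they were 18 to 43 nt wide with a median of 22 nt, and in HITS-CLIP AEG1 2 also 18 to 43 nt, with a median of 22.5 nt, against 51 and 52 nt for other mRNAs. Sites of 25 nt or less were 11 of 17 (64.7%, 38.3 to 85.8) and 12 of 20 (60%, 36.1 to 80.9), against 6.8% and 7.01% over all sites. In the unirradiated HITS-CLIP controls such short sites were 65.0% and 67.8% of all sites. Genes with a single HITS-CLIP site had more short ones in general. Among other genes with 1 site, 29.8% (27.0 to 32.8) and 32.7% (29.7 to 35.9) of sites were short, and among ZNF genes with 1 site 11 of 17 (64.7%) and 10 of 18 (55.6%, 30.8 to 78.5). The interval for ZNF genes lay above the share of the others in replicate 1 (38.3 to 85.8) and included it in replicate 2 (30.8 to 78.5).

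**Figure D3:**
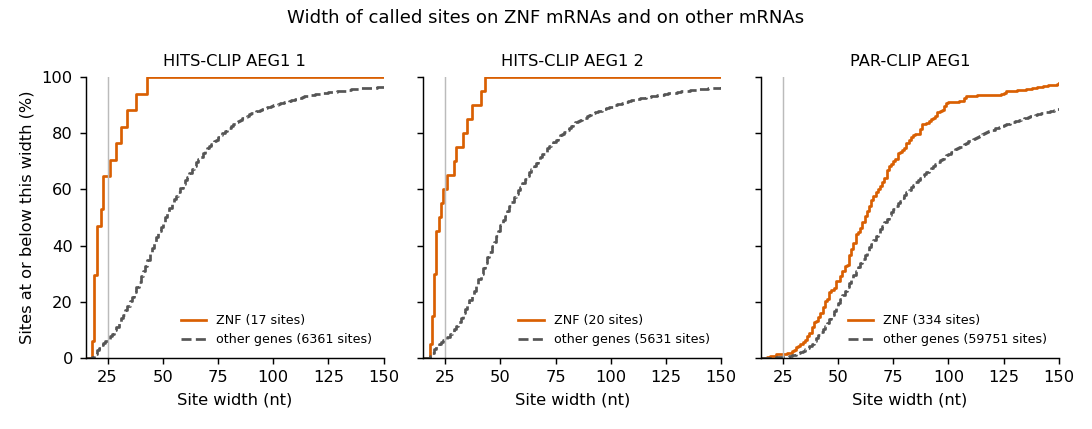
Cumulative share of sites (%) by site width (nt) on ZNF mRNAs (solid) and other mRNAs (dashed) in the 3 AEG1 libraries; the vertical line marks 25 nt, and the axis ends at 150 nt. In both HITS-CLIP replicates all ZNF sites lie at or below 43 nt, whereas the median of other mRNAs is 51 and 52 nt.

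The sites seen in both replicates lay at almost the same bases. Of the 17 replicate 1 sites, 11 (64.7%, 38.3 to 85.8) overlapped a replicate 2 site, as did 63.2% of sites on other mRNAs. In all 11 pairs both ends lay within 2 nt of each other. Among other mRNAs this held for 73.0% (66.6 to 78.8) of the pairs whose replicate 1 site was short and for 6.13% of the longer ones. Of the ZNF pairs, 8 were short and 3 longer, and the 3 longer ones were those of ZNF485, ZNF503 and ZNF771. Those 3 had sites of 26 to 43 nt, and the longer sites on other mRNAs were not matched to them in width.

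The sharpest case was ZNF485, a KRAB zinc finger protein. Its site ran from nt 1867 to 1909 in each HITS-CLIP AEG1 library and also in PAR-CLIP AEG1, with scores of 12.01, 12.82 and 11.60. It was the one site on that mRNA in each library, and the replicates differed by 1.75-fold. ZNF675, a KRAB protein that inhibits TRAF6 signalling, had its site at nt 372 to 393, 372 to 392 and 372 to 393 in the same order, with a score of 9.44 in all 3. On both mRNAs the PAR-CLIP score was no higher than either HITS-CLIP score.

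Some sites recurred in HITS-CLIP alone. ZNF90, another KRAB protein, had a site at nt 327 to 349 scoring 13.50 and at nt 327 to 350 scoring 12.92, and no PAR-CLIP site. ZNF653, a C2H2 protein, had one at nt 131 to 153 in both replicates, at 12.25 and 11.84. ZNF185 is an actin-associated LIM domain protein despite its symbol, and its site lay at nt 1404 to 1422 and 1404 to 1421, at 12.22 and 11.64. These 3 scored 1.5-fold, 1.33-fold and 1.5-fold higher in replicate 1, small folds whose number of reads is unknown. ZNF771 had an equal score of 11.41 in both at nt 160 to 185, and ZNF317, a KRAB protein, 7.26 and 8.26 at nt 2794 to 2811 and 2794 to 2812. None of these 5 had a site in a control.

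ZNF678 was the exception, since its site was present without UV. This KRAB zinc finger mRNA had a site ending at nt 6278 or 6279 in 5 libraries. Without UV its score was 10.78 and 10.87, and with UV it was 10.20 and 11.28 in HITS-CLIP and 9.28 in PAR-CLIP. The unirradiated HITS-CLIP scores thus lay between those of the AEG1 replicates. PAR-CLIP AEG1 also had a site at nt 4786 to 4816 there, at the same score of 9.28. No other ZNF gene had a site in a control. Of short sites on ZNF mRNAs, 1 of 11 (9.09%) in replicate 1 and 1 of 12 (8.33%) in replicate 2 overlapped a HITS-CLIP control site. On other mRNAs 8.98% and 12.0% of short sites did. Absence from the controls was thus common and does not set the other ZNF sites apart.

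ZNF318, a large nuclear protein, had a site at nt 6763 to 6782 in both HITS-CLIP replicates at 5.30, inside a PAR-CLIP site at nt 6744 to 6782 at 6.30. ZNF503, a C2H2 regulator of development, had one at nt 1061 to 1091 and 1062 to 1091, at 10.00 and 9.68, overlapping the highest of its 3 PAR-CLIP sites, nt 1068 to 1119 at 9.27. ZNF398, a C2H2 protein, had a site at nt 181 to 199 and 180 to 199 at 10.24 and 11.25. Replicate 2 added one at nt 5197 to 5216 at 11.16, where PAR-CLIP had its single site, nt 5197 to 5214 at 10.16. The remaining pair of genes was seen in both replicates at different places. ZNF281 had nt 88 to 116 and nt 193 to 233, both at 6.26, and ZNF787 nt 1117 to 1150 at 8.37 and nt 1546 to 1582 at 11.04.

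**Figure D4:**
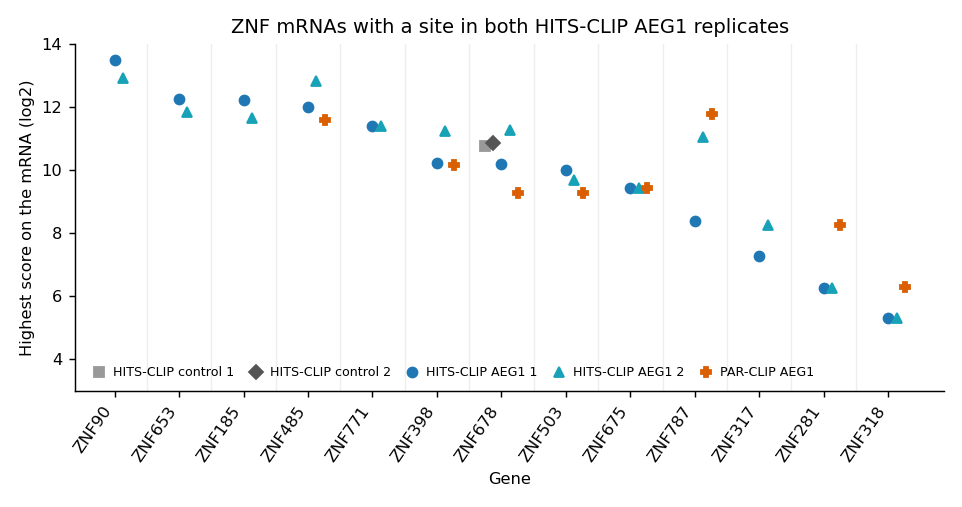
Highest log2 score on each of the 13 ZNF mRNAs with a site in both HITS-CLIP AEG1 replicates, by library; scores are comparable within a gene and not between genes. Where PAR-CLIP has no site no symbol is drawn, and ZNF678 is the one gene with control symbols, which lie between its HITS-CLIP AEG1 values.

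A further 10 ZNF mRNAs were seen in 1 HITS-CLIP replicate only. Thus 13 of the 23 ZNF genes with a site in either replicate had one in both, a share close to the 1321 of 2243 over all genes. Replicate 1 alone had sites on ZNF512B, ZNF564, ZNF711 and ZNF778, and replicate 2 alone on ZNF207, ZNF300, ZNF358, ZNF703, ZNF704 and ZNF839. The widths were 19 to 38 nt. The replicate 2 site of ZNF207, nt 408 to 442 at 7.66, lay in the PAR-CLIP site at nt 406 to 463, which scored 6.33, below the 8.83 of that mRNA's leading PAR-CLIP site.

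Fewer HITS-CLIP sites met a PAR-CLIP site on ZNF mRNAs than on other mRNAs. Of 37 HITS-CLIP sites in both replicates together, 14 (37.8%, 22.5 to 55.2) overlapped a PAR-CLIP site, in 6 of 17 and 8 of 20 cases, against 90.4% and 90.6% of sites on other mRNAs. Short sites overlapped less in other mRNAs too, at 43.5% and 44.5%, and short ZNF sites did so in 4 of 11 and 4 of 12 cases. Longer ZNF sites did so in 2 of 6 (33.3%, 4.33 to 77.7) and 4 of 8 (50.0%, 15.7 to 84.3), with intervals below the 93.7% and 94.0% of longer sites on other mRNAs. The longer sites were not matched in width. On ZNF mRNAs they were at most 43 nt wide, while sites on other mRNAs reached 1585 and 1401 nt. PAR-CLIP sites also covered a median of 86 nt per ZNF gene and 429 nt per other gene. The part of width and cover in this difference was not tested. In the 14 overlaps, on 9 genes, the HITS-CLIP score was higher in 8, the PAR-CLIP score in 4, and 2 were equal. A site seen in both replicates was counted once for each, so the 14 are not independent. The ZNF678 site present without UV was among the 8 in each replicate. By gene, 9 of the 23 ZNF genes with a HITS-CLIP site in either replicate (39.1%, 19.7 to 61.5) had no PAR-CLIP site anywhere, against 8.6% of all 2243 genes with a HITS-CLIP site.

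**Figure D5:**
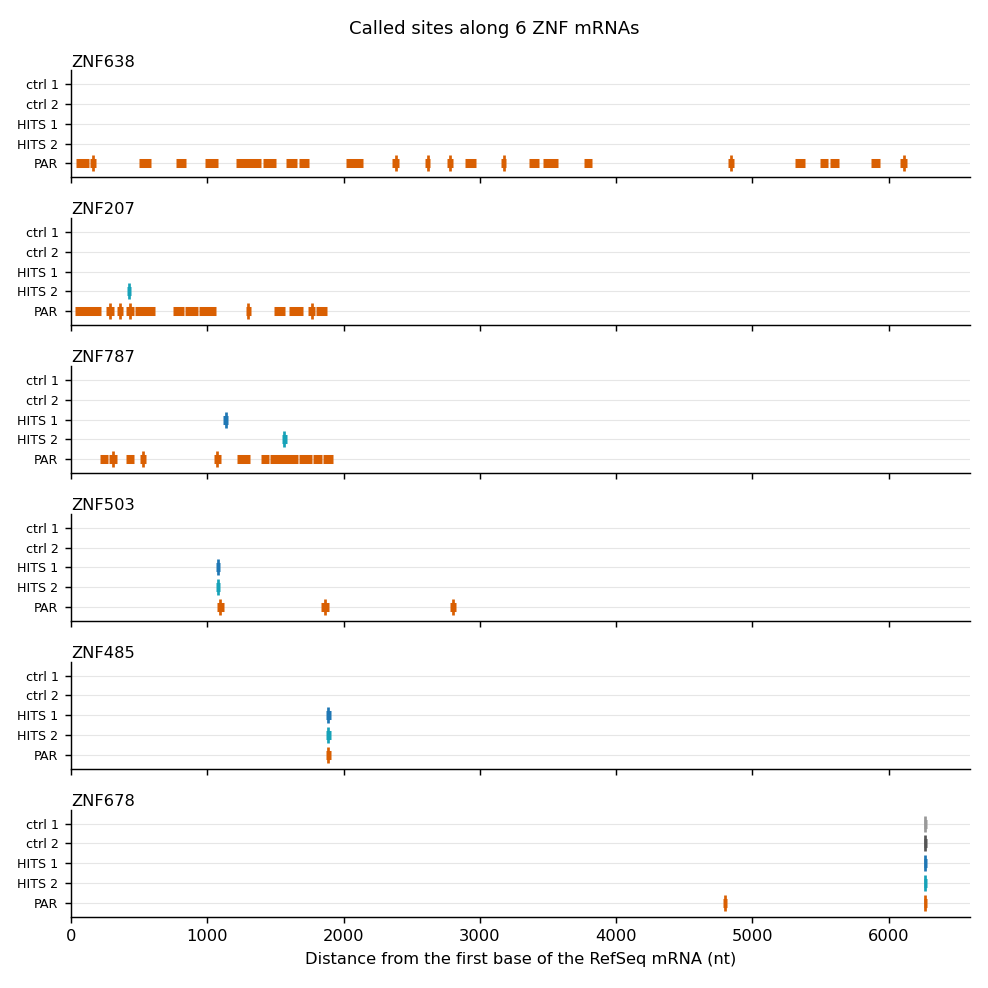
Called sites along 6 ZNF mRNAs by library, plotted as distance from the first base of the RefSeq mRNA (nt); blocks are sites and ticks mark sites under 60 nt. ZNF638 has PAR-CLIP sites throughout and no HITS-CLIP site, ZNF485 has the same site in 3 libraries, and ZNF678 has 1 shared by the HITS-CLIP controls and all AEG1 libraries.

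The partners of KRAB zinc finger proteins were also counted. Of 18 listed genes, 16 had a PAR-CLIP site, all but TASOR and SMARCAD1, where 39.7% of all protein-coding genes had one, and the median was 9.5 sites, against 5 for genes other than ZNF. TRIM28, the corepressor bound by KRAB, had 7, and SETDB1, the histone H3K9 methyltransferase, and ATF7IP, its cofactor, 11 and 8. The HP1 proteins CBX1, CBX3 and CBX5 had 3, 8 and 62. The remodellers CHD3 and CHD4 had 6 and 32, the deacetylases HDAC1 and HDAC2 12 and 11, and DNMT1 and UHRF1, which maintain DNA methylation, 25 and 17. MORC2 had 17, MORC3 2, and the HUSH complex members MPHOSPH8 and PPHLN1 3 and 8.

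In HITS-CLIP, TRIM28 and CHD3 were the 2 partners with sites in both replicates. TRIM28 held 5 and 3 sites of 31 to 107 nt, with highest scores of 7.14 and 7.31 against 10.72 in PAR-CLIP. CHD3 held 1 and 2 sites, highest 7.88 and 8.47. CHD4 held 3 sites and CBX5 1 in replicate 1 alone. CBX5 was also the one partner with a site in the controls, at 5.39 and 5.31 against 5.31 in HITS-CLIP AEG1 1.

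Families with other zinc finger symbols are given for comparison, over genes with a site in any library. Of all such genes 97.6% had a PAR-CLIP site. For ZSCAN and ZKSCAN it was 1 of 2 genes each. Of ZNF genes 123 of 132 had a PAR-CLIP site, as did all 14 ZBTB genes and 9 of 10 ZC3H genes, which encode CCCH fingers that bind RNA. So did all 16 ZDHHC genes, which encode membrane-embedded palmitoyltransferases. The median number of PAR-CLIP sites was 1 for ZNF, 3 for ZBTB, 8 for ZC3H and 5.5 for ZDHHC, against 5 for all genes other than ZNF. It was 1 for the 1 ZSCAN gene and 37 for the 1 ZKSCAN gene. Over 3 genes each it was 8 for ZFP, 10 for ZMYM and 3 for ZMYND. With symbols updated, 3 of 21 ZSCAN (14.3%), 1 of 7 ZKSCAN (14.3%) and 1 of 19 ZFP genes (5.26%) had a PAR-CLIP site. These shares lay below the 23.4% of ZNF, but they rest on few genes and no interval was computed, so the families are not ranked. The share was 36.6% for ZBTB and 50.0 to 66.7% for ZC3H, ZMYM, ZMYND and ZDHHC. A site in both HITS-CLIP replicates was found on 0 of the 14 ZBTB, 1 of the 9 ZC3H and 0 of the 16 ZDHHC genes with a PAR-CLIP site, where the share over all PAR-CLIP genes was 15.5%. Among 46 such RNF genes, which encode RING finger proteins, it was found on 3 (6.52%), and among 119 TMEM genes, a membrane protein family, on 29 (24.4%).

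Short HITS-CLIP sites were also found in other zinc finger families, on few sites. Sites of 25 nt or less were 2 of 2 on ZBTB mRNAs in replicate 1 and 0 of 1 in replicate 2. On ZC3H mRNAs they were 2 of 3 in each replicate. ZSCAN and ZKSCAN mRNAs each had 1 HITS-CLIP site, in replicate 2, and both sites were short. On RNF mRNAs 1 of 7 and 2 of 9 were short, and on ZDHHC mRNAs 0 of 6 in replicate 1, which alone had sites. On TMEM mRNAs 4 of 103 and 6 of 94 were short. The narrow HITS-CLIP sites were thus not found on ZNF mRNAs alone.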

How the data were processed

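Each deposited file lists the called sites of 1 library on RefSeq mRNAs, with a start, an end and the authors' deposited log2 score, whose scaling by library is unstated. The submitters' processing notes name Bowtie but no version. The sources used here do not give the reference, site caller, threshold or handling of reads that match several genes. Starts were taken as 0-based and printed 1-based, as positions in the mRNA. Samples were grouped by title. Members and lists were chosen with earlier results of these data known.

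HITS-CLIP presence of a gene required a site in each AEG1 replicate, and sites overlapped when they shared at least 1 nt. Families and members were counted by the symbols of the files; for shares of all genes, symbols were updated by accession from a RefSeq table (GRCh38.p14), which matched 131 of 132 members. Of these, 5 have another symbol now, and ZFP106 and LOC100293516, now ZNF106 and ZNF587B, lie outside the rule. Intervals are exact Clopper-Pearson and cover counting error only. Named genes are the 15 with most PAR-CLIP sites, all with sites in both HITS-CLIP replicates or in a control, the 5 with the widest span of scores, and all listed partners of KRAB proteins; others were named after their values were seen. Overlap and spacing code was tested on simulated data (Python 3.11.15, scipy 1.17.1). Alternatives for filters, overlap and left-out libraries are in the closing section. The planned division by finger number and KRAB box was not made, and no site sequences are shown, because no protein or transcript sequences were used here.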

Additional observations from a re-analysis of the deposited data

How the results depend on the processing

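Of 38 alternatives, 32 kept the result's direction and side of its threshold, or, where there was no test, left the value within its interval or the count within 1.5 times. Of these, 7 concern the excess of HITS-CLIP AEG1 over control sites. They count as kept on direction alone, whatever the change in size, because with so few libraries their permutation test could not reach a threshold. The 13 ZNF genes with a site in both HITS-CLIP replicates became 23 with a site in either, 5 (ZNF281, ZNF485, ZNF503, ZNF771 and ZNF787) with sites over 25 nt, and 0 with at least 2 sites in each replicate; a single replicate gave 17 or 19. The 123 PAR-CLIP genes became 54 with at least 2 sites. The share of PAR-CLIP ZNF genes in both HITS-CLIP replicates, 6.50%, was 12.5% (2 of 16) among genes with at least 5 PAR-CLIP sites, against 22.1% of other genes. The share of sites at a multiple of 84 nt was 63.0% within 6 nt, against 59.0% on other mRNAs with as many sites. The excess of HITS-CLIP AEG1 over control sites, 17.5 per library, was 7 with sites over 25 nt, and 16 to 19 when each library was left out in turn. With the replicate number as a block it was 17.5 (16 and 19 within the numbers; exact paired permutation p = 0.5, the smallest that 2 pairs allow). For this difference, leaving out ZNF678 or single libraries was added after the data were seen, as were the overlap shares for sites over 25 nt. The alternative finger pattern was not run. With 17 and 20 ZNF sites per HITS-CLIP AEG1 library, the intervals of their shares are wide, and with unknown read depth an mRNA without a site cannot be called unbound.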
